A study of Mus musculus with 87 samples.

Results

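The sites described here are the 1023 genomic regions that a FLAG-tagged DUX protein occupied in mouse embryonic stem cells (mESCs) without any detected OBOX4 peak. They were chosen by 2 peak lists and 1 repeat annotation: a peak of the FLAG-DUX list on chromosomes 1 to 19, X or Y was kept when it overlapped no peak of any of the 3 FLAG-OBOX4 lists and no MT2_Mm locus. The DUX list held 1802 peaks on these chromosomes, so the DUX-only sites were 56.8% of it. The rest were 390 peaks shared with OBOX4 away from MT2_Mm, 233 peaks on MT2_Mm without OBOX4, and 156 peaks with both.

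DUX is a double-homeodomain transcription factor of cleavage-stage embryos. At the 2-cell (2C) stage of the mouse it binds and activates genes of zygotic genome activation, among them the Zscan4 cluster, as well as the retrovirus MERVL, whose long terminal repeat is MT2_Mm. OBOX4 is a single-homeodomain protein of the multicopy Obox family that is present at the same stage. Homeodomains read short sequences with a TAAT or GATT core, and a protein with a pair of them reads a pair of cores.

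CUT&RUN, which cuts and sequences the DNA under an antibody, was made in EB3 mESCs of the 129/Ola background. FLAG-DUX and FLAG-OBOX4 came from doxycycline-inducible transgenes in clonal lines, so both proteins were expressed outside the embryo. CUT&RUN of H3K4me3, H3K27ac and H3K27me3 compared Obox4 KO cells with WT cells, with pladienolide B (PlaB, a splicing inhibitor that moves mESCs towards a 2C-like state) or without it, with 3 lists in each condition. RNA was sequenced in 2C-embryos of the B6D2F1 background (2 pools each of Dux KD, Obox4 KD, double KD, double KD rescued with codon-changed Obox4 mRNA, and scramble), in mESCs under PlaB (3 libraries each of Dux KO, Obox4 KO, double KO and WT), and in mESCs at 0, 12 and 48 h of Obox4 induction (3 libraries each). The knockdowns used antisense oligonucleotides injected into zygotes. Each knockout line was a clone, and the Obox4 KO removed most but not all copies of that gene. Replicates are numbered libraries of a group, so the p-values below measure the spread between those libraries.

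The sequence GATTNAATC was in the peak of 240 of the 1023 sites. It is a palindrome apart from its middle base, and it was searched on both strands. The stretches below run 5′ to 3′ on the strand of the match in GRCm38, with the match, or the nearest stretch where there was none, in capitals. The first set is shown because the Zscan4 genes, which encode zinc-finger and SCAN-domain proteins of the 2C stage, had some of the largest RNA falls at these sites. Those falls were in Dux KD embryos and Dux KO cells.
Zscan4b, chr7:10905323-10905383, minus strand: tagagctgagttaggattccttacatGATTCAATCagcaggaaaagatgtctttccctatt
Zscan4c, chr7:11005388-11005448, plus strand: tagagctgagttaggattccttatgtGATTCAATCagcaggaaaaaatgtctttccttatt
Zscan4d, chr7:11166455-11166515, minus strand: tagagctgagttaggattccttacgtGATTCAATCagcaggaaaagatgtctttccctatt
Zscan4f, chr7:11397581-11397641, plus strand: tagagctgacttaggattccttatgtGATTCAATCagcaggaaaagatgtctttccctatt
The same 9 bases stood 303, 327, 326 and 304 bases before the starts of Zscan4b, Zscan4c, Zscan4d and Zscan4f. Zscan4e and the pseudogenes Zscan4-ps1, Zscan4-ps2 and Zscan4-ps3 carried them 303 to 338 bases before theirs. The site of Zscan4a held no exact match. Its closest stretch had 1 mismatch and lay 92 bases before the gene start.
Zscan4a, chr7:10799119-10799179, minus strand: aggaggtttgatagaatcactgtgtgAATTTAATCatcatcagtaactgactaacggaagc

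The second set shows the same core in other settings: in an MT2B1 element at the start of AF067061, in an intron of Usp17le with 1 mismatch, and in the repeats RMER6A and RMER6C.
AF067061, chr13:120262944-120263004, plus strand: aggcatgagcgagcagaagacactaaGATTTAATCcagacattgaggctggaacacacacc
Usp17le, chr7:104774878-104774938, minus strand: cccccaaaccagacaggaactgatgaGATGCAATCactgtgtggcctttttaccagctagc
RMER6A, chr1:85183379-85183439, minus strand: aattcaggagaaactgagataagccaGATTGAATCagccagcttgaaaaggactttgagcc
RMER6C, chr14:95485337-95485397, plus strand: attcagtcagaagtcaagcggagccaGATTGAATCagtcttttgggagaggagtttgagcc
The match is exact in the RMER6A and RMER6C stretches and in that of AF067061.

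GATTNAATC lay within 50 bases of the summit at 93 of 1023 DUX-only sites (9.09%, Wilson 95% interval 7.48 to 11.01). Windows of the same length 500 bases away on either side held it at 5 and 6 sites (0.489% and 0.587%). Over the whole peak it was at 240 sites (23.5%, 20.97 to 26.2). Of the DUX peaks shared with OBOX4 off MT2_Mm, 6 of 390 had it in the summit window (1.54%, 0.707 to 3.32) and 18 anywhere in the peak (4.62%). On MT2_Mm the share was higher: 75 of 233 summit windows without OBOX4 (32.2%) and 50 of 156 with it (32.1%). The intervals of the DUX-only and the OBOX4-shared peaks off MT2_Mm did not overlap. Neighbouring members such as the Zscan4 copies share sequence, so these intervals cover counting error only.

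Matches gathered at the summit. Of 350 matches within 1000 bases of a DUX-only summit, 288 were within 200 bases, which is 0.702 per 1000 bases, against 0.0379 per 1000 bases farther out. The middle base was C or G in 207 of the matches inside the peaks and A or T in 42. Among all 9-base words in the summit windows the most frequent was GATTCAATC or its reverse complement, at 71 sites. It was at 3 and 5 sites in the flanks. ATTCAATCA was at 60 DUX-only sites and ATTGAATCA at 52, whereas neither was in any summit window on MT2_Mm. AGATTCAAT was in 126 and AGATTGAAT in 122 windows on MT2_Mm, against 34 and 35 at DUX-only sites. The bases next to the core thus differed between the DUX-only sites and the MT2_Mm elements. The word GCCCCGCCC, rich in CpG, was at 22 DUX-only sites and at 21 of the far fewer sites shared with OBOX4 off MT2_Mm.

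**Figure D1:**
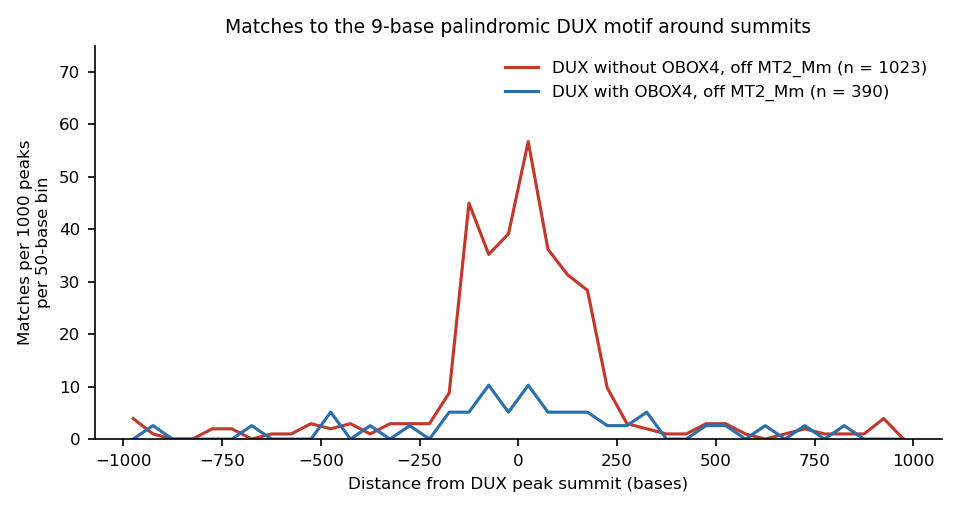
Matches to GATTNAATC per 1000 peaks in 50-base bins (y axis) by distance from the DUX summit in bases (x axis), for 1023 DUX-only sites (red) and 390 DUX peaks shared with OBOX4 off MT2_Mm (blue). The red line stands well above its own flanks within about 200 bases of the summit, where 288 of 350 matches lie.

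The word GGGATTAA, a form of the core of the paper's OBOX4 motif, was not enriched at DUX-only summits. It was in 7 summit windows (0.684%), against 13 and 10 of the flanking windows (1.27% and 0.978%), and in 28 whole peaks (2.74%). The peaks shared with OBOX4 off MT2_Mm were alike, with 5 of 390 summit windows (1.28%) against 1.54% and 0.769% of the flanking windows. On MT2_Mm without OBOX4 it was in 62 of 233 summit windows (26.6%). Of the 264 genes near DUX-only sites, 92 matched a promoter in the RefSeq table for GRCm38, which spans 250 bases before to 50 after the start. GATTNAATC was in the promoters of only 2 of these 92, AF067061 and Duxf3 (2.17%), against 83 of all 27025 promoters (0.307%). The DUX-only site chr10:58233222-58233685 before Duxf3 held no exact match. Its closest stretch had 2 mismatches and lay 952 bases before the gene start. The matches before the Zscan4 genes lie outside that window.

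The DUX-only sites were as enriched as the rest of the list. Their median enrichment over background, as the peak caller gave it, was 8.01 (range 1.92 to 33.2), and the median of the other 779 DUX peaks was also 8.01. The median −log10 q was 12.2 (5.03 to 235) and the median length 277 bases (175 to 2241). The lowest −log10 q was 5.03 in the DUX list and 1.31 in the OBOX4 lists, so the OBOX4 lists reached weaker peaks than the DUX list did. There was 1 DUX list, with no replicate of it.

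The line between DUX-only and shared sites is a matter of bases for a few peaks. The nearest OBOX4 peak was at a median of 23787 bases (16 to 1241030). It was within 100 bases for 9 members and within 1000 bases for 64. The smallest gaps were 16, 32, 33, 39 and 49 bases, and the smallest overlaps that removed a peak off MT2_Mm were 4, 6, 10, 11 and 18 bases. The 3 OBOX4 lists held 27713, 20417 and 22263 peaks and met 488, 372 and 365 DUX peaks. Of the DUX peaks met, 291 were met in all 3 lists, 97 in 2 and 158 in 1.

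Most DUX-only sites were away from gene starts. The summit was between genes at 525 sites, in an intron at 415 and in an exon at 83. The nearest gene start was at a median of 9376 bases, 42 sites lay over a gene start, 251 (24.5%) within 3000 bases and 522 within 10000 bases. Summit windows held 1.39 CpG on average and 46.9% G and C, against 3.56 CpG and 54.1% at the OBOX4-shared peaks off MT2_Mm. The 42 sites over a gene start had 5.05 CpG per window. Only 4 of these 42 had GATTNAATC in the peak, against 240 of all 1023.

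The sites were clustered along the chromosomes. Chromosome 4 held 110 (10.8%) and chromosome 14 held 106 (10.4%). Of 579 windows of 1 Mb with a member, 13 held 10 or more and together 208 sites (20.3%). The densest window, chr5:15000001-16000000, held 30 sites among the Speer4 genes, a multicopy family expressed in the testis. The window chr4:147000001-148000000 held 26 among zinc-finger genes such as Zfp978 and Zfp985, and chr3:93000001-94000000 held 20 among Tdpoz2, Tdpoz3, Tdpoz4 and their relatives, which encode TRAF and POZ domain proteins. Another cluster, in chr7:15000001-16000000, had 16 sites near 13 Obox4 copies. Their names mark them as pseudogenes in the annotation, whereas the paper found Obox4 to be protein-coding, with intact reading frames in some copies. All 4 windows hold gene families of near-identical copies, in which reads may map to a wrong copy.

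The 10 highest-scoring members were a mixed group. The highest −log10 q, 235, was at chrX:76598652-76599131 in an intron, on the repeat SYNREP_MM, with an enrichment of only 6.04 and Cldn34d 3793 bases away. Next came chr14:5903935-5904642 on the L1 element Lx3A (196), 4934 bases from Gm3242. The third, chr10:58224912-58225694 (116), lay over the start of AW822073 next to the Dux array and held GATTNAATC. Satellite MurSatRep1 lay under a pair of them, the higher at chr13:66670221-66670722 (106). The highest enrichment of any member, 33.2, was in an intron at chr16:43912419-43914659, 12150 bases from Qtrt2. The others were near Gm21036, Gm13245, Sfi1 and Fau-ps2, and those near Gm21036 and Sfi1 also held GATTNAATC.

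Repeats were under 394 of the 1023 summits (38.5%), against 69.8% of the other DUX peaks, most of which the MT2_Mm rule had set aside. The most frequent names were RMER6A (34 sites), RMER6C (29), MERVL-int (21), L1_Mus3 (12) and MT2B1 (12). RMER6 elements are old long terminal repeats of rodents, and MERVL-int is the internal part of MERVL. Over all 4 RMER6 names there were 66 DUX-only sites (6.45%, Wilson 95% interval 5.10 to 8.13), against 4 of the other DUX peaks (0.513%, 0.200 to 1.31). Of the 779 other DUX peaks 389 overlap MT2_Mm, so few of those could have a summit on RMER6. The rule itself thus lowers the share of the other DUX peaks. GATTNAATC was in 42 of the 66 DUX-only peaks on RMER6 names (63.6%). The 34 sites on RMER6A were 0.858% of its 3965 loci, so a small minority of the family was bound.

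The other repeats differed from RMER6 in their sequence. None of the 21 peaks on MERVL-int and none of the 11 on RLTR17 held GATTNAATC, whereas 3 of 12 on L1_Mus3 and 3 of 12 on MT2B1 did. L1 and Lx names together were under 96 sites (9.38%), and under 11.3% of the other DUX peaks. L1Md_A alone was under 2 DUX-only sites (0.196%) and under 62 of the other DUX peaks (7.96%), so the names within this class differed. ORR1 names were under 40 sites and MT names (MTA to MTE) under 22, of which 8 held the sequence. Only 7 of the 66 RMER6 sites had a gene start within 3000 bases.

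**Figure D2:**
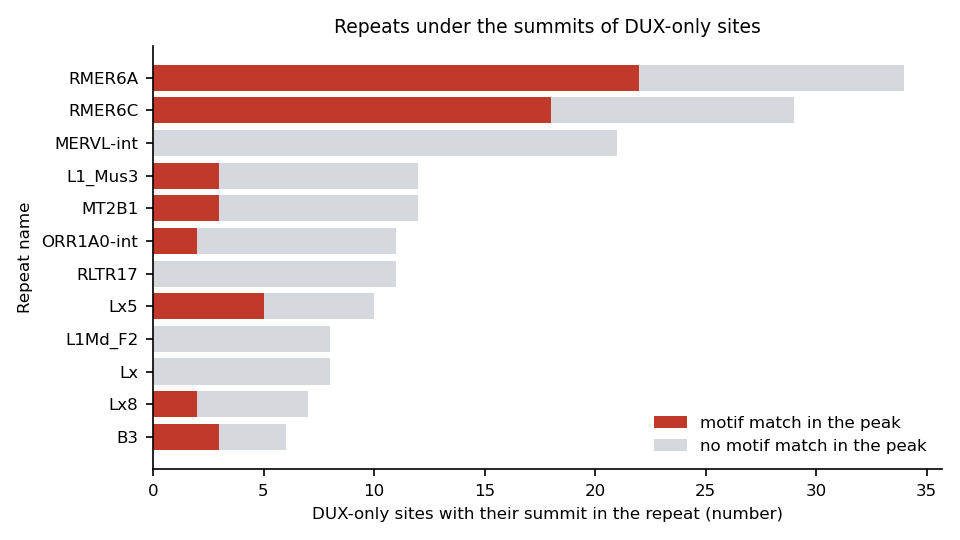
Number of DUX-only sites (x axis) with their summit in each of 12 repeat names (y axis), with the part of each bar in red for peaks that hold GATTNAATC. RMER6A (34 sites, 22 with the sequence) and RMER6C (29, 18) lead, and MERVL-int (21) has none in red.

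RNA was compared at the 264 genes with a start within 3000 bases of a DUX-only site. A gene was not removed when it also lay near another DUX peak or an OBOX4 peak, so DUX-only names the site. A gene was called when its change was 2-fold or more and its Benjamini-Hochberg adjusted value in edgeR's quasi-likelihood test did not exceed 0.01. In 2C-embryos 161 of these genes had enough counts for the test, under PlaB 158 and in the induction series 117. The libraries held 26148176 to 69461986 gene counts in 2C-embryos, 14283083 to 48837123 under PlaB and 22470332 to 31504967 in the induction series. Levels below are gene counts scaled to the library size, as CPM. In RNA of whole samples, fewer 2C-like cells and less RNA per cell cannot be told apart.

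The summed level of 8 mESC markers moved with the groups under PlaB: it was 3208 to 3235 CPM in Dux KO, 1983 to 2821 CPM in Obox4 KO, 1922 to 2466 CPM in double KO and 4012 to 4123 CPM in WT cells. Fibroblast markers summed to 14.5 to 17.0 CPM in Dux KO, 20.3 to 23.9 CPM in Obox4 KO, 16.1 to 40.2 CPM in double KO and 10.03 to 11.05 CPM in WT cells. In embryos 6 oocyte transcripts summed to 1919 to 2075 CPM in Dux KD, 2179 to 2291 CPM in those labelled Obox4 KD, 1310 to 1467 CPM in double KD, 2231 to 2291 CPM in rescue and 2319 to 2407 CPM in scramble. The part of these markers in the differences below was not tested. In the induction series mESC markers were at 4739 to 6315 CPM with overlapping groups. The double KO library 3 was the shallowest, with 14283083 counts and a scaling factor of 0.752. The Obox4 KO library 3 under PlaB stood apart from the other 2 of its group, with Zscan4 genes near or above the WT levels and other 2C genes, such as Gm8300 and Usp17le, between the other 2 libraries and WT, and values without it are given where they change a count.

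The targeted genes were checked first. Duxf3, the intact Dux gene, had 3.66 and 1.93 CPM in Dux KD embryos, against 6.49 and 7.68 CPM in scramble embryos, a log2 change of -1.30 (SE 0.28, adjusted p = 0.0032 by edgeR's quasi-likelihood test). Under PlaB it had no counts in 3 of 3 Dux KO libraries, against 5.78, 5.74 and 4.73 CPM in WT, at least 264-fold lower with a floor of 3 counts over the group. Duxf3 itself has DUX-only sites over and just before its start.

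The summed Obox4 reads were lower in Obox4 KO cells, and in embryos labelled Obox4 KD they were not. Reads of 39 annotated Obox4 copies summed to 68.0 and 83.5 CPM in the embryos labelled Obox4 KD, against 68.4 and 76.0 CPM in scramble embryos, and the groups overlapped. Reads that map to several copies had been discarded before these counts were made, and the part of that in the sum was not tested. Among single copies Obox4-ps27 had 0.242 and 0.133 CPM in these embryos, against 1.77 and 3.08 CPM in scramble embryos (log2 change -3.67, SE 0.61, adjusted p = 0.0021 by edgeR's quasi-likelihood test), lost in some leave-one-out fits. The paper also measured Obox4 RNA and OBOX4 staining in its knockdown embryos, and those values are not restated here. The embryos labelled Obox4 KD are called by their label below. Under PlaB the same sum was 4.68, 3.65 and 11.9 CPM in Obox4 KO cells, against 17.0, 15.6 and 15.6 CPM in WT cells. In Dux KO cells it was 0.1299, 0.1161 and 0.1236 CPM, below every Obox4 KO library. Dux KD embryos had 52.4 and 47.6 CPM and double KD embryos 44.1 and 41.7 CPM, all below both scramble pools. The part of lower Obox4 RNA in the Dux KO and Dux KD differences below was not tested. In the induction series the sum was 0.611, 0.385 and 0.391 CPM at 0 h, 5.00, 6.65 and 7.11 CPM at 12 h and 8.51, 7.08 and 7.61 CPM at 48 h.

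The first question was what the genes at DUX-only sites did when Dux was knocked down in 2C-embryos. Of 161 tested, 37 fell and 4 rose in Dux KD embryos. The targeted gene Duxf3 is among the 37. Over all 23085 genes 1.05% fell and 3.25% rose. Of the genes near other DUX peaks 15 of 162 fell. By class of peak, where a gene could count in several, 5 of 26 fell near MT2_Mm peaks without OBOX4. Near MT2_Mm peaks with OBOX4 5 of 23 fell, and near peaks shared with OBOX4 off MT2_Mm 8 of 120. The genes that fell were led by the Zscan4 cluster, by genes similar to the translation initiation factor Eif1a (Gm2022, Gm8332, Gm8300, Gm5662, Gm2016), and by Pramef6, a PRAME family gene. The Obox4 copy Obox4-ps29 fell as well (log2 change -3.53, adjusted p = 0.0015 by edgeR's quasi-likelihood test). The median log2 change over the tested genes was -0.28, against 0.04 over all genes. Of 31 genes whose site held GATTNAATC 11 fell, and of 130 whose site did not 26 fell. The 11 include Zscan4b to Zscan4f, Zscan4-ps1, Zscan4-ps2 and Zscan4-ps3, so most are near-identical copies of 1 family. The split therefore does not show that the sequence goes with the response outside that family.

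Zscan4d had 44.0 and 55.8 CPM in Dux KD embryos, against 176 and 172 CPM in scramble embryos. Its log2 change was -1.81 (SE 0.14, adjusted p = 3.1e-07 by edgeR's quasi-likelihood test). In embryos labelled Obox4 KD it had 162 and 136 CPM, a log2 change of -0.23 (SE 0.14, adjusted p = 0.4). Both Dux KD pools were thus below every pool of the other single knockdown and of scramble.

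Zscan4b had the largest change of the cluster, with 3.36 and 3.15 CPM in Dux KD embryos against 72.9 and 63.3 CPM in scramble embryos (log2 change -4.38, SE 0.29, adjusted p = 4.6e-08). It had 41.3 and 28.0 CPM in embryos labelled Obox4 KD, a log2 change of -0.98 (adjusted p = 0.02). Zscan4a had 19.5 and 22.6 CPM in Dux KD embryos, against 165 and 150 CPM in scramble embryos (log2 change -2.91), and 101.2 and 87.1 CPM in embryos labelled Obox4 KD. For these copies the order was the same in each pool: Dux KD lowest, the embryos labelled Obox4 KD between, scramble highest. The copies are near-identical and reads that fit several were discarded, so the split between them is uncertain.

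Outside the cluster, Usp17le, a ubiquitin-specific protease gene, had 27.5 and 22.5 CPM in Dux KD embryos against 62.7 and 79.5 CPM in scramble embryos (log2 change -1.50, SE 0.16, adjusted p = 7.9e-06). It had 60.3 and 54.8 CPM in embryos labelled Obox4 KD (log2 change -0.30, adjusted p = 0.3). Tmem92, which encodes a transmembrane protein, had 73.3 and 64.0 CPM in Dux KD embryos against 244 and 199 CPM in scramble embryos, a log2 change of -1.69. Pramef6 had 10.9 and 7.20 CPM in Dux KD embryos, against 58.8 and 62.8 CPM in scramble embryos, a log2 change of -2.73 (SE 0.18). None of the 3 genes had overlapping groups in Dux KD against scramble.

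AF067061, whose site lies on an MT2B1 element at its start, had 44.4 and 40.0 CPM in Dux KD embryos against 85.6 and 81.1 CPM in scramble embryos. Its log2 change of -0.98 (SE 0.14, adjusted p = 0.00013 by edgeR's quasi-likelihood test) was just under the 2-fold limit. In embryos labelled Obox4 KD it had 77.9 and 78.0 CPM, a log2 change of -0.10 (adjusted p = 0.78).

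Of the 4 genes that rose in Dux KD embryos, Zfp617, a zinc-finger gene, had 9.14 and 9.57 CPM there, against 5.23 and 3.66 CPM in scramble embryos (log2 change 1.06, adjusted p = 0.0034 by edgeR's quasi-likelihood test). Adap2, which encodes a GTPase-activating protein for Arf, had 0.747 and 1.78 CPM against 0.153 and 0.288 CPM in scramble embryos (log2 change 2.52, adjusted p = 0.0072), and its call was lost when some single libraries were left out. The other 2 were Gm11400 and Gm18626.

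In embryos labelled Obox4 KD, 2 genes at DUX-only sites fell and 1 rose, where 0.182% of all genes fell and 0.23% rose. The 2 that fell were Obox4-ps27 and Zscan4e, and the 1 that rose was Zfp617. Zscan4e had 54.1 and 35.8 CPM in these embryos, against 100.3 and 90.6 CPM in scramble embryos (log2 change -1.09, SE 0.23, adjusted p = 0.0098 by edgeR's quasi-likelihood test). DESeq2 called 1 gene of the 161, and 45 had an unadjusted p under 0.05 by edgeR. The count was 0 without Obox4 KD library 2 and 1 without scramble library 2.

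The 2 single knockdowns were also compared directly, a comparison added after the data were seen. Of 161 genes at DUX-only sites 27 were lower in Dux KD embryos than in embryos labelled Obox4 KD, and 0 were higher by edgeR's quasi-likelihood test or by DESeq2. Over all genes 0.476% were lower and 1.65% higher, and 61 of the 161 had an unadjusted p under 0.05. Of the genes near other DUX peaks 6 of 162 were lower. Zscan4d was lower by a log2 change of -1.58 (SE 0.14, adjusted p = 2.5e-06) and Zscan4b by -3.40.

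With both factors knocked down, 48 genes at DUX-only sites fell and 9 rose, where 3.16% of all genes fell and 8.42% rose. Near other DUX peaks 32 of 162 fell. By class, 11 of 26 fell near MT2_Mm peaks without OBOX4 and 5 of 23 near those with it. Near peaks shared with OBOX4 off MT2_Mm 20 of 120 fell. Zscan4d had 24.8 and 28.6 CPM in double KD embryos, a log2 change of -2.71 (SE 0.15, adjusted p = 1e-09 by edgeR's quasi-likelihood test) against scramble. AF067061 had 19.1 and 23.4 CPM in double KD embryos, a log2 change of -1.98 (SE 0.15, adjusted p = 2.2e-08). Gm8300 had 21.7 and 29.1 CPM in double KD embryos, 43.4 and 46.6 CPM in Dux KD embryos, 110 and 85.9 CPM in embryos labelled Obox4 KD, and 151 and 148 CPM in scramble embryos. For these genes the double KD pools were the lowest of the 4 groups. Copies of the targeted Obox4 fell too, Obox4-ps29 by a log2 change of -5.08 and Obox4-ps27 by -4.41. H2-Q7, a major histocompatibility class I gene, was among the 9 that rose, with 10.7 and 11.8 CPM against 5.23 and 4.97 CPM in scramble embryos (log2 change 1.13).

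Obox4 mRNA given to double KD embryos was followed by higher RNA at some of these genes. Their DUX-only sites had no OBOX4 peak in mESCs, but OBOX4 peaks elsewhere near these genes were not excluded. The paper names Zscan4d among 2C genes where binding of DUX and OBOX4 overlapped in mESCs. Of 161 genes 16 were higher and 3 lower in rescue embryos than in double KD embryos, where 1.1% of all genes were higher and 3.27% lower. Zscan4d had 59.6 and 84.9 CPM in rescue embryos, against 24.8 and 28.6 CPM in double KD embryos (log2 change 1.44, SE 0.14, adjusted p = 2e-06 by edgeR's quasi-likelihood test). Gm8300 had 55.7 and 80.2 CPM in rescue embryos (log2 change 1.43, SE 0.16) and AF067061 37.8 and 56.04 CPM (log2 change 1.15, SE 0.14). Both rescue pools were above both double KD pools for each of the 3 genes, and below both scramble pools. Without rescue library 2 the count of 19 was 11.

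Duxf3 moved with them: it had 8.16 and 5.78 CPM in rescue embryos, against 3.86 and 2.92 CPM in double KD embryos (log2 change 1.03, adjusted p = 0.0068 by edgeR's quasi-likelihood test). The part of Duxf3 in the other differences was not tested. Usp17le did not pass, with 24.0 and 33.9 CPM in rescue embryos and 24.3 and 19.3 CPM in double KD embryos (log2 change 0.40, adjusted p = 0.068), and its groups overlapped. The 3 genes that were lower in rescue embryos were Platr16, H2-Q7 and Gm18342. H2-Q7 had 3.63 and 3.95 CPM in rescue embryos, so its pools there were below those of scramble.

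Under PlaB the 16 known 2C genes at these sites were all lower in Dux KO cells, 8 of them without a count. The knocked-out gene Duxf3 is among these 8. Of 158 tested genes 67 were lower and 1, AC124108.1, was higher in Dux KO cells, where 4.7% of all genes were lower and 1.62% higher. Near other DUX peaks 41 of 164 were lower, and the classes differed. Near MT2_Mm peaks without OBOX4 17 of 21 were lower, and near those with it 12 of 18, larger shares than at DUX-only sites. Near peaks shared with OBOX4 off MT2_Mm 17 of 134 were lower. Of the 158, 40 had no count in 3 of 3 Dux KO libraries. The call of AC124108.1 was lost when any 1 Dux KO or WT library was left out. Of 27 genes whose site held GATTNAATC 15 were lower, and of 131 whose site did not 52 were lower. The same Zscan4 copies with the sequence are among the 15.

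Zscan4d had no counts in any Dux KO library, against 194, 211 and 178 CPM in WT cells, at least 9499-fold lower. Zscan4a had none either, against 220, 240 and 215 CPM in WT cells, at least 10977-fold lower. AF067061 had none against 23.0, 21.8 and 22.3 CPM in WT cells, at least 1091-fold lower. Zscan4b, Zscan4c, Zscan4e and Zscan4f also had no counts, and the pseudogene Zscan4-ps3 had 2 counts in 1 library. Usp17le kept 0.216, 0.0774 and 0.0412 CPM in Dux KO cells, against 259, 257 and 253 CPM in WT cells, a log2 change of -11.15 (SE 0.33, adjusted p = 2e-09 by edgeR's quasi-likelihood test). Tmem92 kept 0.195, 0.290 and 0.350 CPM, against 80.3, 80.7 and 76.2 CPM in WT cells (log2 change -8.13).

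The number of genes that passed after the loss of Obox4 under PlaB turned on 1 library. Of 158 genes 27 were lower and 1 higher in Obox4 KO cells, where 3.96% of all genes were lower and 4.92% higher. Near other DUX peaks 29 of 164 were lower. By class, 12 of 21 were lower near MT2_Mm peaks without OBOX4 and 11 of 18 near those with it. Near peaks shared with OBOX4 off MT2_Mm 11 of 134 were lower. Without the Obox4 KO library 3 the count was 55, of which 52 were lower, and without any other 1 library of Obox4 KO or WT it was 15 to 18. Of 27 genes whose site held GATTNAATC 1 was lower with all 3 libraries and 13 were lower without library 3. Zscan4b to Zscan4f are among the 13. Of those whose site did not, 26 of 131 were lower with all 3 libraries and 39 of 136 without library 3. Duxf3 had 2.42, 3.11 and 5.45 CPM in the Obox4 KO libraries, the last in library 3, against 5.78, 5.74 and 4.73 CPM in WT cells. Its part in these differences was not tested.

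The genes that were lower in Obox4 KO cells with all 3 libraries included the Eif1a-like genes and AF067063. They also included copies of the targeted gene itself: Obox4-ps14, Obox4-ps16 (log2 change -9.93) and Obox4-ps27 (-9.39). Zscan4a to Zscan4f passed only without library 3. Gm8300 had 34.6, 35.1 and 98.0 CPM in Obox4 KO cells, against 168, 185 and 185 CPM in WT cells (log2 change -1.68, SE 0.39, adjusted p = 0.0093 by edgeR's quasi-likelihood test). AF067063 had 0.272, 0.207 and 0.818 CPM against 9.99, 10.4 and 9.003 CPM in WT cells (log2 change -4.55, SE 0.47, adjusted p = 0.00023). Zscan4d had 86.4, 85.7 and 220 CPM in Obox4 KO cells, a log2 change of -0.58 (adjusted p = 0.25) with groups that overlapped through library 3. Without that library its log2 change was -1.18 (SE 0.11, adjusted p = 9.4e-05), and that of Zscan4a was -1.96. Usp17le had 126, 125 and 155 CPM, a log2 change of -0.92 (SE 0.19, adjusted p = 0.0038), under the 2-fold limit with all 3 libraries below WT, and -1.03 without library 3.

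Naalad2, of the glutamate carboxypeptidase family, and Ubtfl1, an HMG-box gene of the early embryo, share a DUX-only site on an MT2C_Mm element. Naalad2 was lower in Dux KO cells (log2 change -2.73) and in Obox4 KO cells (-1.48), and in Dux KD embryos its log2 change was 0.56, under 2-fold in the other direction. Ubtfl1 was lower in Dux KO cells by a log2 change of -5.41 and had -0.63 in Dux KD embryos, under the 2-fold limit. The only gene that was higher in Obox4 KO cells was Ikzf4, a zinc-finger gene of the Ikaros family, with 4.54, 5.59 and 4.97 CPM against 2.26, 2.52 and 2.44 CPM in WT cells (log2 change 1.06).

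In double KO cells 77 genes were lower and 7 higher, where 8.79% of all genes were lower and 9.25% higher. Near other DUX peaks 55 of 164 were lower. By class, 17 of 21 were lower near MT2_Mm peaks without OBOX4 and 13 of 18 near those with it. Near peaks shared with OBOX4 off MT2_Mm 31 of 134 were lower. Gm8300, which kept 2 libraries with counts in Dux KO cells, had none in double KO cells, at least 4843-fold lower than WT. Of the 7 that were higher, Esrp1, a regulator of epithelial splicing, had 24.1, 22.5 and 17.1 CPM in double KO cells against 1.20, 1.77 and 0.956 CPM in WT cells (log2 change 4.02, SE 0.80, adjusted p = 0.0016 by edgeR's quasi-likelihood test). In Obox4 KO cells Esrp1 had 2.09, 1.49 and 19.6 CPM, the last in the library that stood apart.

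Compared directly, 50 genes were lower and 2 higher in Dux KO than in Obox4 KO cells, where 3.85% of all genes were lower and 0.945% higher. Near other DUX peaks 35 of 164 were lower. By class, 16 of 21 were lower near MT2_Mm peaks without OBOX4 and 11 of 18 near those with it. Near peaks shared with OBOX4 off MT2_Mm 13 of 134 were lower. This comparison was also added after the data were seen. Summed Obox4 reads were lower in Dux KO than in Obox4 KO cells, so it does not set loss of Dux alone against loss of Obox4. Of the genes whose site held GATTNAATC 15 of 27 were lower, and of those without it 35 of 131. Zscan4b to Zscan4f are among the 15.

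Induction of Obox4 in mESCs raised genes at these sites. At 12 h 8 of 117 genes were higher, where 0.612% of all genes were higher and 0.145% lower. At 48 h 30 were higher, where 3.37% of all genes were higher and 0.574% lower. None was lower at either time by edgeR's quasi-likelihood test or DESeq2, and 41 genes at 12 h and 53 at 48 h had an unadjusted p under 0.05. Near other DUX peaks 2 of 138 were higher at 12 h and 9 at 48 h. By class at 48 h, 6 of 12 were higher near MT2_Mm peaks without OBOX4 and 2 of 11 near those with it. Near peaks shared with OBOX4 off MT2_Mm 3 of 121 were higher at 48 h. DESeq2 called 12 genes higher at 12 h and 34 at 48 h. The 12 h count was 2 without library 2 or library 3 of 0 h, 5 without library 1 of 0 h or library 3 of 12 h, and 4 without library 2 of 12 h.

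The 8 genes that passed at 12 h were led by Eif1a-like genes. Gm8300 had 3.26, 2.17 and 2.77 CPM at 0 h, 9.97, 12.6 and 11.9 CPM at 12 h and 25.2, 17.0 and 16.0 CPM at 48 h. Its log2 change against 0 h was 2.08 at 12 h (adjusted p = 0.00063 by edgeR's quasi-likelihood test) and 2.83 at 48 h (adjusted p = 3.7e-05). Zscan4d had 3.54, 2.42 and 2.18 CPM at 0 h, 4.31, 6.24 and 4.65 CPM at 12 h and 21.1, 13.6 and 13.8 CPM at 48 h. Its log2 change was 0.91 at 12 h (adjusted p = 0.085) and 2.58 at 48 h (adjusted p = 1e-04). The Eif1a-like genes Gm2016, Gm2022, Gm5662, Gm8300 and Gm8332 were 5 of the 8 genes that passed at 12 h, and no Zscan4 gene was. The difference in timing between the gene groups was not tested.

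Usp17le passed at both times, with 3.75, 3.47 and 3.78 CPM at 0 h, 10.3, 7.23 and 7.38 CPM at 12 h and 20.0, 23.3 and 21.7 CPM at 48 h. AF067061 had 0.0407, 0.2803 and 0.0978 CPM at 0 h, 0.924, 0.331 and 0.403 CPM at 12 h and 2.41, 2.20 and 1.55 CPM at 48 h (log2 change at 48 h 3.81, SE 0.55, adjusted p = 0.0012 by edgeR's quasi-likelihood test). All 3 libraries at 48 h were above all 3 at 0 h for each of these 4 genes. Of 23 genes whose site held GATTNAATC 12 were higher at 48 h, and of 94 without it 18 were. The 12 include Zscan4b to Zscan4f and the 3 Zscan4 pseudogenes, which are near-identical copies.

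Duxf3 was measured beside them. It had 0.652, 0.2803 and 0.326 CPM at 0 h, 0.731, 0.455 and 1.25 CPM at 12 h and 1.51, 1.53 and 0.792 CPM at 48 h, a log2 change of 1.62 at 48 h (adjusted p = 0.047 by edgeR's quasi-likelihood test) that did not pass. Its part in the differences at 48 h was not tested. Obox4-ps16 was also higher (log2 change 4.32 at 12 h and 4.50 at 48 h), and reads of the transgene could map there.

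**Figure D3:**
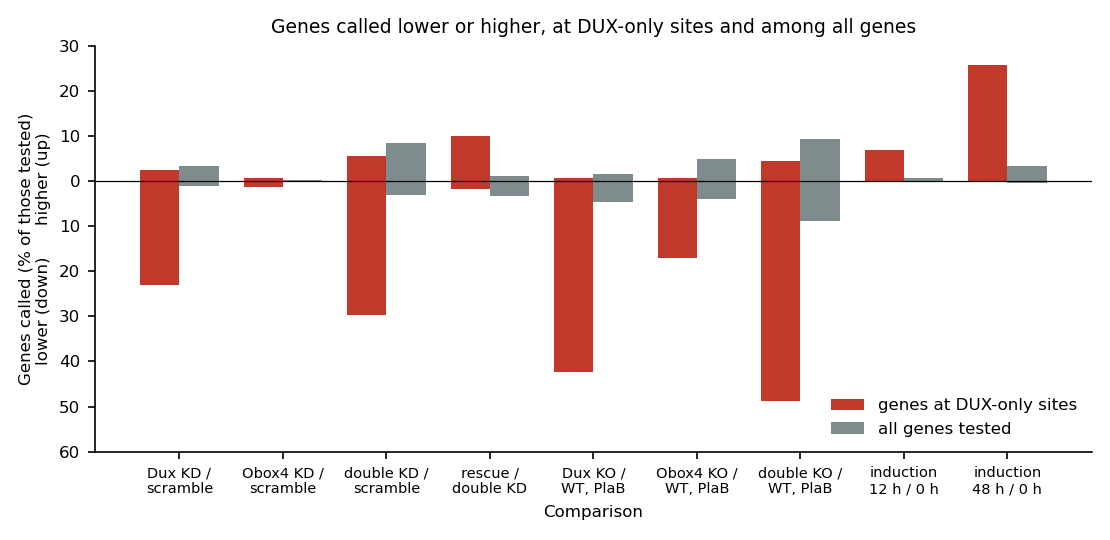
Percent of tested genes called higher (upward) and lower (downward) in 9 comparisons, for genes within 3000 bases of a DUX-only site and for all genes. The genes at DUX-only sites exceed all genes downward in Dux KD (37 of 161) and Dux KO (67 of 158), and upward at 48 h of Obox4 induction (30 of 117).

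**Figure D4:**
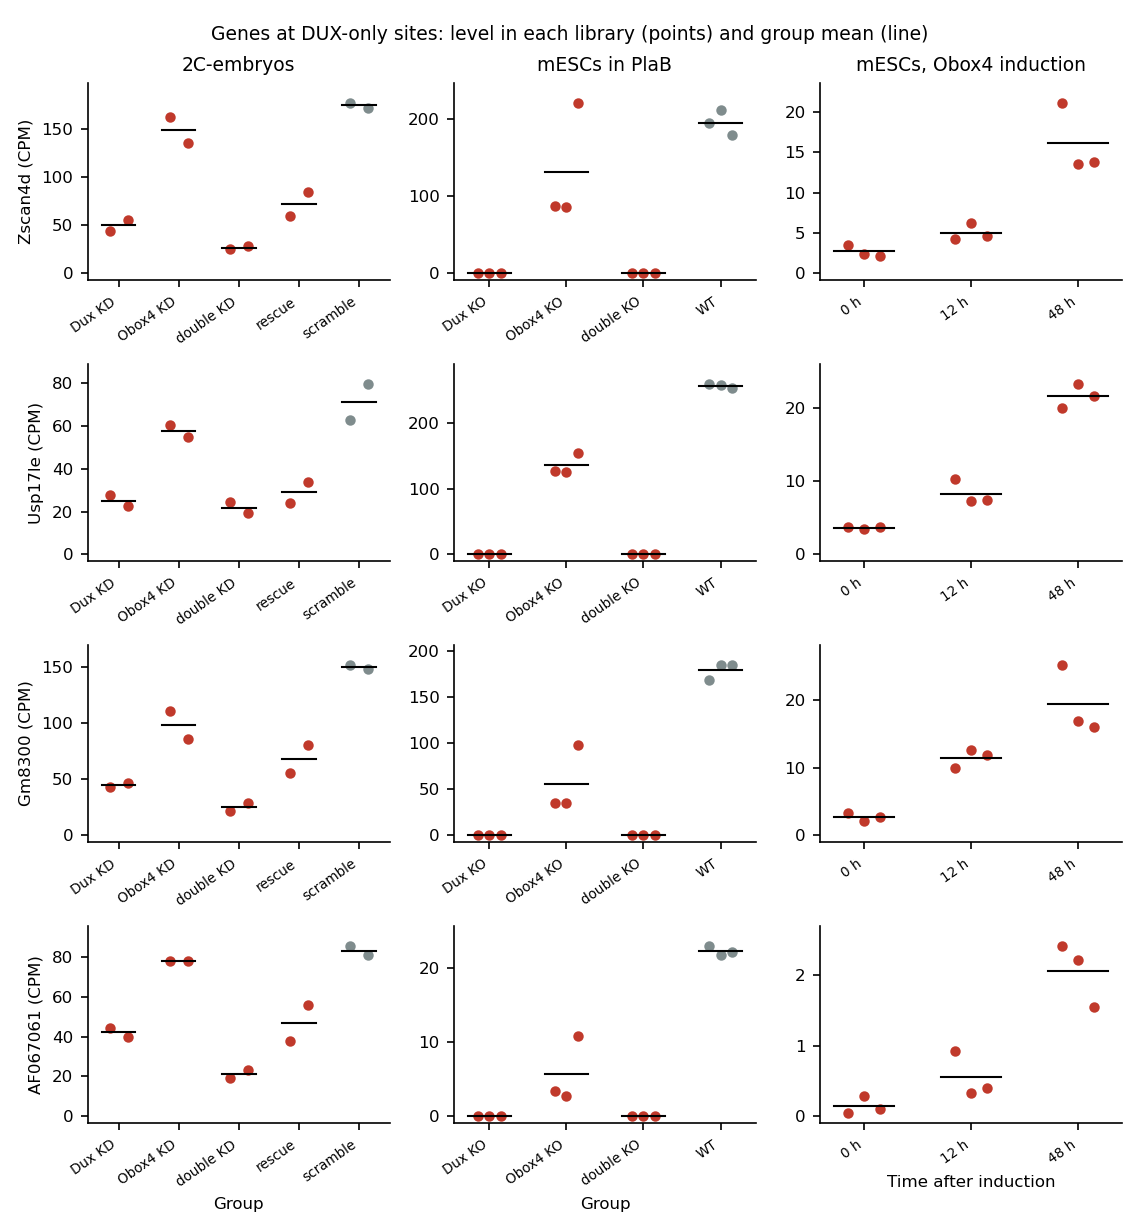
CPM per library of Zscan4d, Usp17le, Gm8300 and AF067061 in 2C-embryos, in mESCs under PlaB and in the Obox4 induction series, with bars at the group means. Dux KD and Dux KO libraries are below scramble and WT for each gene, and the 3 libraries at 48 h are above those at 0 h.

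The lists of called genes from separate experiments shared members. Of the 37 genes that were lower in Dux KD embryos, 36 (97.3%) were lower in Dux KO cells, which is 53.7% of the 67 there. The targeted gene Duxf3 is among the 36. Of the same 37, 22 (59.5%) were higher at 48 h of Obox4 induction, which is 73.3% of those 30. Of the 67 that were lower in Dux KO cells, 28 (41.8%) were higher at 48 h, which is 93.3% of the 30. With the 27 that were lower in Obox4 KO cells, the 37 shared 13 (35.1% and 48.1%) and the 30 shared 9 (30% and 33.3%). Obox4 copies are among them, Obox4-ps27 in the 13 and Obox4-ps16 in the 9. Dux KO and Obox4 KO cells share their WT libraries, so their lists are not set against each other here. In all, 22 genes were lower in Dux KD embryos, lower in Dux KO cells and higher at 48 h. They include Zscan4a to Zscan4f, the 3 Zscan4 pseudogenes, Usp17le, Tmem92, AW822073 and all 5 Eif1a-like genes.

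A DUX-only site lay near 16 known 2C genes, a list that earlier results of these data had helped to choose. Duxf3, which the Dux KD and KO target directly, is among the 16. Of these 16, 14 fell in Dux KD embryos, 1 in embryos labelled Obox4 KD and 15 in double KD embryos, and 12 were higher in rescue than in double KD embryos. Of the 50 other tested genes of the list, 14, 0 and 23 fell and 8 were higher in rescue. Under PlaB all 16 were lower in Dux KO cells and in double KO cells and 4 in Obox4 KO cells, against 38, 36 and 23 of the 47 others tested. Without the Obox4 KO library 3, Zscan4a to Zscan4f, Usp17le and AF067061 of these 16 also passed in Obox4 KO cells. At 48 h of Obox4 induction 14 of the 16 were higher, against 25 of 38 others.

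RNA of the repeats under the sites was counted by repeat name over the whole genome, so it does not belong to the bound loci alone. MERVL-int was the name that changed most often. It had 156207 and 156640 CPM of repeat counts in Dux KD embryos, against 343541 and 297404 CPM in scramble embryos, a log2 change of -1.03 (SE 0.18, adjusted p = 0.0046 by edgeR's quasi-likelihood test). In Dux KD 0.284% of all repeat names were called, in embryos labelled Obox4 KD 0%, in double KD 1.99% and in rescue against double KD 0.473%. The Dux KD call of MERVL-int was lost without either Dux KD library, without double KD library 1 or without scramble library 1.

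MERVL-int had 247855 and 198681 CPM in embryos labelled Obox4 KD (log2 change -0.52, adjusted p = 0.214), and 132238 and 157123 CPM in double KD embryos (-1.15, adjusted p = 0.000975). Under PlaB it had 2770, 2890 and 2868 CPM in Dux KO cells, 20205, 20680 and 45704 CPM in Obox4 KO cells, and 99927, 105657 and 98316 CPM in WT cells. The log2 changes were -5.16 in Dux KO and -1.81 in Obox4 KO (adjusted p = 0.0016 by edgeR's quasi-likelihood test). In these fits 3.8% of repeat names were called in Dux KO, 1.23% in Obox4 KO and 4.84% in double KO cells. At 48 h of Obox4 induction it was higher by a log2 change of 1.75 (adjusted p = 0.0058), with 0.296% of names called, and at 12 h 0% of names were called. Its calls were lost without double KD library 1 in double KD, without library 2 in Obox4 KO, and at 48 h without any library of 0 h, library 2 of 12 h, or library 1 or 2 of 48 h. MERVL-int lies next to MT2_Mm, which the choice of sites had set aside, and only 17 of its 2569 loci held a DUX-only site.

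RMER6A, the repeat with most DUX-only sites, did not pass in any comparison under the repeat table's own scaling, and passed with a log2 change of -1.04 in double KO cells under the scaling of the gene table. Its level was 641 to 812 CPM over the embryos, 1554 to 1966 CPM under PlaB and 1785 to 2352 CPM in the induction series. RMER6C had a log2 change of -0.33 in Dux KO cells (adjusted p = 0.0049 by edgeR's quasi-likelihood test) and -0.40 in double KO cells (adjusted p = 0.0012), both under 2-fold. MT2B1 fell in double KO cells with a log2 change of -1.06 (adjusted p = 0.0006), lost without double KO library 3, and in Dux KO cells its change was -0.83, under 2-fold.

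H3K27ac, a mark of active promoters and enhancers, was found at more DUX-only sites under PlaB than without it. In WT cells under PlaB the 3 lists overlapped 22.2%, 23.1% and 25.7% of the sites (23.7% ± 1.83, SD, n = 3), against 7.62%, 10.9% and 11.2% in untreated WT cells (9.94% ± 2.01). The exact permutation test, two-sided, gave p = 0.1, the smallest that 3 against 3 lists allow. Of the other DUX peaks 48.4% carried it under PlaB and 35.6% untreated. The PlaB lists were not longer: they held 33127 to 40913 peaks over 28.5 to 33.4 Mb, against 38185 to 52586 peaks over 33.4 to 45.6 Mb untreated.

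In Obox4 KO cells under PlaB the sites had less H3K27ac than in WT cells under PlaB. The 3 lists overlapped 11.5%, 10.3% and 9.58% of the sites in Obox4 KO cells (10.5% ± 0.992), against 23.7% in WT cells (exact permutation p = 0.1). The groups did not overlap, and the Obox4 KO lists were the longer ones, with 49794 to 62836 peaks over 42.5 to 52.2 Mb. Untreated Obox4 KO cells had 10.5%, 10.9% and 8.60% (10.0% ± 1.24), against 9.94% in untreated WT cells (exact permutation p = 1). The other DUX peaks had less as well, with 33.3% in Obox4 KO cells under PlaB against 48.4% in WT cells under PlaB. That was a difference of -15.1 points, against -13.2 at DUX-only sites, so the lower share was not particular to them. Untreated, the other DUX peaks had 35.9% in Obox4 KO and 35.6% in WT cells.

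Sites with GATTNAATC carried H3K27ac at 29.4% ± 3.07 in WT cells under PlaB, 7.22% in untreated WT cells and 5.42% in Obox4 KO cells under PlaB (n = 3 lists each). The sites without it had 21.9%, 10.8% and 12.01% in the same order of conditions. There were 62 sites (6.06%) in all 3 PlaB WT lists and in no untreated WT list, and 2 with the reverse pattern. Of these 62, 55 were in no list of Obox4 KO cells under PlaB, 21 (33.9%) held GATTNAATC, 2 were on RMER6 names and 23 had a gene start within 3000 bases. The genes near them include Zscan4a, Zscan4c, Zscan4d, Zscan4e, Usp17le, AW822073 and Adap2. The single sites of Gm8300 and AF067061 were in no H3K27ac list of either WT condition, although both genes had RNA under PlaB. Reads at the near-identical Zscan4 copies may map to a wrong copy in these lists too.

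H3K4me3, a mark of gene starts, was found at 11.6% ± 1.04 of the sites in WT cells under PlaB and 12.1% ± 0.370 in untreated WT cells (exact permutation p = 0.6). It was at 7.85% ± 0.203 in Obox4 KO cells under PlaB, against 11.6% in WT cells under PlaB, and at 9.12% ± 0.462 in untreated Obox4 KO cells, against 12.1% in untreated WT cells (exact permutation p = 0.1 for each). The list lengths moved too: untreated Obox4 KO lists covered 52.3 to 58.8 Mb, against 67.6 to 71.7 Mb in untreated WT. The Obox4 KO lists under PlaB covered 44.0 to 49.2 Mb, against 39.1 to 44.1 Mb in WT. Of the other DUX peaks 31.0% carried it in Obox4 KO and 32.9% in WT cells under PlaB, and 34.1% in Obox4 KO and 35.2% in WT cells untreated. Of the 42 sites over a gene start, 58.7% carried H3K4me3 in WT cells under PlaB and 51.6% in untreated WT cells.

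H3K27me3, a mark of Polycomb repression, was at 13.8% ± 1.96 of the sites in WT cells under PlaB and 14.4% ± 0.847 in untreated WT cells (exact permutation p = 0.8). It was at 17.4% ± 2.66 in Obox4 KO cells under PlaB, against 13.8% in WT cells under PlaB, and at 17.1% ± 0.299 in untreated Obox4 KO cells, against 14.4% in untreated WT cells (exact permutation p = 0.1 for each). The other DUX peaks had 17.9% in Obox4 KO and 10.9% in WT cells under PlaB, a difference of 6.97 points against 3.62 at DUX-only sites, and 17.2% and 13.4% untreated. The Obox4 KO lists covered more of the genome, 112 to 168 Mb against 89.2 to 126 Mb under PlaB and 117 to 127 Mb against 96.6 to 104 Mb untreated. The part of list length in these differences was not tested.

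**Figure D5:**
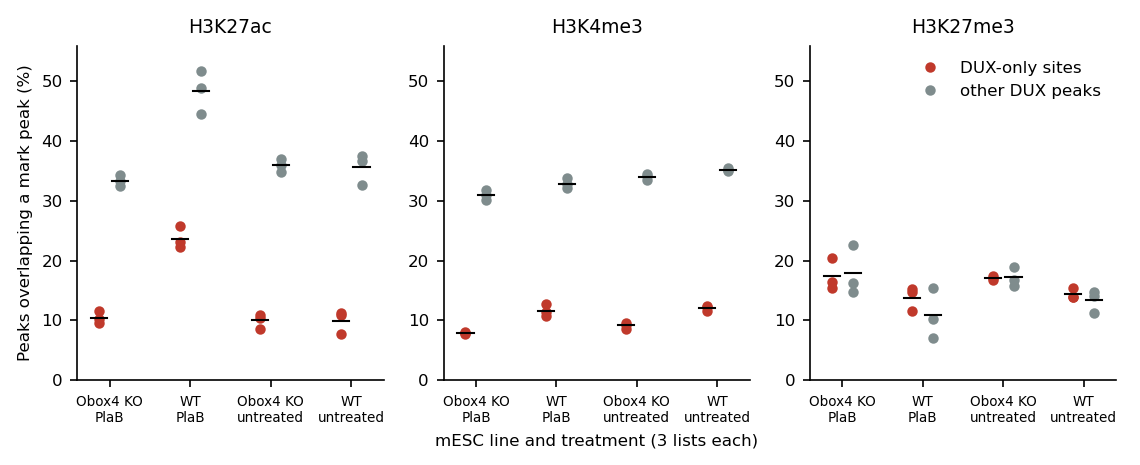
Percent of DUX-only sites and of the other DUX peaks (y axis) that overlap a peak of H3K27ac, H3K4me3 or H3K27me3, 1 point per list with 3 lists in each of Obox4 KO and WT cells under PlaB and untreated. The H3K27ac points of WT cells under PlaB (22.2% to 25.7% of DUX-only sites) stand above those of the other 3 conditions.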

How the data were processed

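CUT&RUN and RNA libraries of mESCs and RNA libraries of 2C-embryos were used. The authors trimmed reads with fastp 0.23.2, mapped RNA with STAR 2.7.9a to GRCm38.p6 and deposited gene counts from featureCounts 2.0.1 with multi-mapping reads discarded. The repeat tables the authors deposited hold estimated counts, in which multi-mapping reads were split in fractions between mm10 RepeatMasker names, and they were rounded here. For CUT&RUN the authors used Bowtie2 2.4.1 and MACS3 3.0.0a6 on each replicate, and the deposited lists give the score, fold enrichment (a ratio to background), −log10 q and summit position of each peak. The submitters' processing notes also name deepTools 3.5.1 and bcl2fastq 2.20.

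A site is a DUX peak with no shared base with an OBOX4 peak or an MT2_Mm locus of the repeat table. The members and gene lists were chosen with earlier results of these data known. Counts were fitted with edgeR 4.0.16 (TMM scaling, quasi-likelihood test, 1 fit over all groups of an experiment, R 4.3.3, limma 3.58.1) and Benjamini-Hochberg adjustment over all genes, with a gene called at an adjusted p of at most 0.01 and a log2 change of at least 1. DESeq2 1.42.0 was an alternative. The scripts were tested on simulated data. Lists of marks were compared by exact permutation tests over 3 lists against 3. Gene positions came from the deposited tables, promoters from RefSeq (GRCm38.p6), and other sequences from the RefSeq GRCm38 genome, read with pysam 0.24.0 in Python 3.11.15 (pandas 2.3.3, numpy 2.4.6, scipy 1.17.1, matplotlib 3.10.9). Intervals of shares are Wilson 95% intervals, and a group without counts was set to 3 counts for a bound.

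The text names genes by this rule: 2C genes with a start within 3000 bases of a site, the 10 top-scoring sites with their nearest gene, for each comparison at most 6 called genes that rose most and 6 that fell most (mean count at least 20, groups not overlapping, clone names set aside unless fewer than 3 others remained), and the 5 repeat names with most sites. Gm11400 and Gm18626 complete a count, and RLTR17 and the genes of the dense windows were named after their values were seen. Morula and single-blastomere tables, and 3 IgG libraries whose labels contradict each other, were not used here. An untagged FLAG control and IgG peak lists were not analysed here.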

Additional observations from a re-analysis of the deposited data

Results flagged for a closer look

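The FLAG-DUX list held 42 further peaks outside chromosomes 1 to 19, X and Y, which no comparison used. Of them 10 were on the mitochondrial genome and 32 on unplaced scaffolds. They were noted because they are signal in the same list that the comparisons left out, and no control list was analysed beside them.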

How the results depend on the processing

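Of 86 results on named genes under 1257 alternatives, 1153 kept their direction and side of the threshold, 104 kept the direction but no longer passed, and 0 reversed. Of 45 results on repeats under 560 alternatives, 539 held, 16 no longer passed and 5 newly passed. The number of DUX-only sites was 1023, and 555 among DUX peaks above the list's median q. GATTNAATC was at 9.09% of summit windows and 23.5% of whole peaks. With gene starts within 10000 bases the counts of called genes were 109 in place of 68 (Dux KO), 50 in place of 28 (Obox4 KO), 146 in place of 84 (double KO), 82 in place of 52 (Dux KO against Obox4 KO) and 47 in place of 30 (48 h). DESeq2 gave 1 in place of 3 for the embryos labelled Obox4 KD. Peaks above that median gave 17 for Obox4 KO and 5 in place of 8 for 12 h. Leaving out each library in turn gave 0 to 4 for the embryos labelled Obox4 KD, 11 to 22 for rescue (19), 15 to 55 for Obox4 KO and 2 to 10 for 12 h. For the marks, in percentage points, leaving out 1 list gave -1.01 to 0.016 for H3K4me3 in PlaB WT against untreated WT (-0.456), -1.09 to 0.766 for H3K27ac in untreated Obox4 KO against WT (0.0652), where 3 leave-outs reversed it (-0.163, -0.407 and -1.09), and -1.27 to 0.538 for H3K27me3 in PlaB WT against untreated WT (-0.587). The last was 1.73 with mark peaks of −log10 q of at least 5 and 0.364 without the 16 sites near Obox4 copies. The cause of these changes was not tested, except that a wider window holds more genes and the stricter peak list fewer.

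Replicate numbers did not pair the libraries. Correlations of same numbers ran from -0.0412 to 0.0591 in 2C-embryos, -0.0137 to 0.102 under PlaB and -0.613 to 0.38 in the induction series. Those of different numbers ran from -0.0591 to 0.0412, -0.0885 to 0.0695 and -0.346 to 0.474 in the same order. Single pairs in the induction series thus varied together or apart, and variation shared across the numbers was not tested. A replicate block gave 2 in place of 8 for 12 h and 23 in place of 30 for 48 h, and moved the other counts by at most 1.5 times. The scaling of the gene table moved the 5 named repeats in double KO cells by -0.98 to -0.91 on the log2 scale, and with it RMER6A (-1.04), RMER6C (-1.33) and L1_Mus3 (-1.16) in double KO and MT2B1 (-1.15) in Dux KO cells passed. With 1 DUX list, the number of sites has no replicate error, and 2 embryo pools a group limit the 2C results.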
